A study of Pseudopodoces humilis with 2 samples.

Results

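Introns that one assembled transcript splices out and another carries inside an exon were described in liver and muscle of the ground tit (Pseudopodoces humilis), a passerine that lives on the ground of the Tibetan plateau. An intron was taken as the gap between consecutive exon rows of a transcript, and it was counted as retained where it lay wholly inside 1 exon of another spliced transcript on the same scaffold and strand, with at least 1 base of that exon on each side. Of 153810 unique introns, 2131 (1.39%, Wilson 95% interval 1.33 to 1.45) met this rule, and the other 151679 served for comparison. A further 32 introns touched the end of such an exon and were left out.

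RNA sequencing of the tissues was done to help annotate the genes of this bird. The series holds 1 sample of liver and 1 of muscle, each made from total RNA with Illumina's TruSeq RNA kit; the labels give no age, sex, strain, treatment or number of birds. Transcripts assembled with Cufflinks were deposited once for liver and 2 times for muscle, and the latter are named here muscle assembly 2 and muscle assembly 3 after their own numbers. The sources do not say whether the muscle assemblies came from separate birds or libraries. There were no replicates of a tissue, so no difference was tested, and all intervals cover counting error only.

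During splicing the spliceosome joins exons and removes the introns between them. An intron that stays in the processed RNA is called retained, a form of alternative splicing. As background from vertebrates, retained introns tend to be short, and such RNA is often held in the nucleus or, where the reading frame is broken, degraded by nonsense-mediated decay. An intron inside an assembled exon does not by itself tell stable retention from RNA that has not yet been spliced.

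The files label the exon rows as CDS, the name for coding sequence. In all 23614 liver transcripts, 31092 transcripts of muscle assembly 2 and 27092 of muscle assembly 3 these rows reached both ends of the transcript and carried no phase. They are thus exons, and where the reading frame or the untranslated regions lie was not given. Liver had 107293 unique introns in 17536 spliced transcripts, muscle assembly 2 had 132166 in 21109, and muscle assembly 3 had 123396 in 19743. Gene names are not paired with IDs in the files, so the tissues could not be checked against marker genes and regions are named by position. Read depth is not given in the assemblies.

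The assemblies held nearly the same number of retained introns. Liver carried 1146 of the 2131 introns inside an exon, muscle assembly 2 carried 1164 and muscle assembly 3 carried 1179. The transcripts that did so numbered 1192 in liver, 6.80% of its spliced transcripts (6.43 to 7.18). In muscle assemblies 2 and 3 they numbered 1286 each, 6.09% (5.78 to 6.42) and 6.51% (6.18 to 6.87). Their median number of exons was 9 in every assembly, against 8 over all spliced transcripts.

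Many introns were assembled in both forms within the same file. In liver 542 introns were both spliced out and retained, 553 in muscle assembly 2 and 494 in muscle assembly 3. These made up 0.505%, 0.418% and 0.400% of the introns spliced in each assembly. Seen from the retained side, 47.3% (44.4 to 50.2) of the introns retained in liver were also spliced there, 47.5% (44.7 to 50.4) in muscle assembly 2 and 41.9% (39.1 to 44.7) in muscle assembly 3. Over all assemblies, 1341 of the 2131 introns (62.9%, 60.9 to 65.0) had both forms in at least 1 assembly, and 790 (37.1%) had their forms in different assemblies only.

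The other states differed more with the assembly than retention did. Introns spliced out with no retaining exon numbered 436 in liver, 692 in muscle assembly 2 and 631 in muscle assembly 3. Neither form was assembled for 549 introns in liver, 275 in muscle assembly 2 and 321 in muscle assembly 3. Liver had the fewest introns in the spliced state alone and the most with neither form. It also had the fewest unique introns of any kind, 107293 of 153810, against 132166 in muscle assembly 2 and 123396 in muscle assembly 3. The order of both states is thus that of the assemblies by size, and a difference beyond it was not tested.

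**Figure D1:**
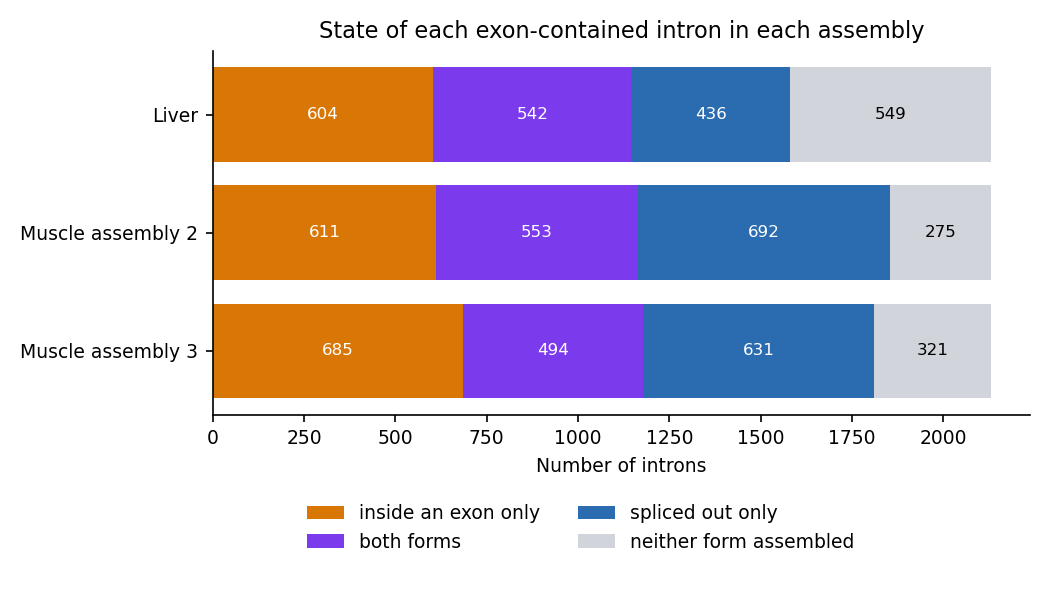
Number of the 2131 introns (horizontal axis) in each state in liver and both muscle assemblies, with each count printed in its segment. Introns inside an exon only and introns with both forms together reach nearly the same length in the 3 bars, while liver has the longest segment of introns with neither form (549).

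Retaining and splicing transcripts usually belonged to the same gene structure. For 1956 of the 2131 introns (91.8%, 90.5 to 92.9) a retaining transcript shared at least 1 other intron with a splicing transcript, and for 1282 (60.2%, 58.1 to 62.2) it shared 5 or more. The retaining exon began and ended exactly at the outer ends of the exons flanking the intron for 1212 introns (56.9%, 54.8 to 59.0). The 5′ outer end alone matched for 384, the 3′ outer end alone for 395, and neither for 140. Where the retaining exon was internal, 85.6% (82.8 to 88.1) matched at both ends. Where it was the first or the last exon, one of its ends is the end of the transcript, and 19.7% (16.1 to 23.8) and 52.1% (48.8 to 55.3) matched at both.

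Most retained introns were seen retained in 1 assembly. Retention was found in a single assembly for 1228 introns (57.6%, 55.5 to 59.7), in 2 for 448 (21.0%, 19.3 to 22.8) and in all 3 for 455 (21.4%, 19.7 to 23.1). The spliced form was scarcer than for other introns. It was found in all 3 assemblies for 381 retained introns (17.9%, 16.3 to 19.6), against 58.6% (58.4 to 58.9) of the other introns, and in 1 assembly only for 1295 (60.8%, 58.7 to 62.8) against 21.6% (21.4 to 21.8). Seen the other way, 3.80% (3.60 to 4.01) of introns spliced in 1 assembly lay inside an exon, 1.50% (1.37 to 1.64) of those spliced in 2 and 0.427% (0.386 to 0.471) of those spliced in all 3. Part of both comparisons is set by the rule. An intron spliced in all 3 met it only where an assembly had both forms. Only introns that met it could have the retained form in place of the spliced form in an assembly.

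With 4 possible states in each of the 3 assemblies, 49 patterns occurred. These are all that the rule allows, since each intron needs a spliced and a retained form. The most frequent, with 139 introns, had both forms in liver and only the retained form in both muscle assemblies. Next came 136 introns with no form in liver, spliced in muscle assembly 2 and retained in muscle assembly 3. Another 125 had both forms in liver and the spliced form alone in both muscle assemblies, and 114 had the retained form alone in liver and the spliced form alone in both muscle assemblies. Both forms in all 3 assemblies were found for 47 introns.

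Between the tissues, introns were found with the retained form in either tissue alone. Retention was seen in liver and muscle for 692 introns (32.5%, 30.5 to 34.5), in liver alone for 454 (21.3%, 19.6 to 23.1) and in muscle alone for 985 (46.2%, 44.1 to 48.3). Of the 985, 549 had no form at all in liver, so their absence from liver says nothing about splicing there. The remaining 436 were spliced out in liver, 0.440% of the 99119 introns with a form in both tissues. Of the 454, 384 were spliced out in muscle, 0.387% of those introns, and 70 had no form in muscle. Only introns that met the rule could be counted here, so these shares describe the whole set of introns and not the retained ones.

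Which tissue had more such introns turned with the number of muscle assemblies used. Against both muscle assemblies, 436 introns were spliced in liver and retained in muscle, and 384 the reverse. With muscle assembly 3 alone the counts were 269 and 391, and with muscle assembly 2 alone 256 and 395. The muscle side gathers retention over 2 assemblies and the liver side over 1. Where retention counted only beside splicing in the same assembly, the counts were 201 and 166, and with exact outer ends of the retaining exon 237 and 209. Of the 436, 89 (20.4%, 16.9 to 24.4) were retained in both muscle assemblies, 167 in muscle assembly 2 alone and 180 in muscle assembly 3 alone. In 229 of them (52.5%, 47.8 to 57.2) one muscle assembly retained the intron while the other spliced it only, as liver did. Of the 384 retained in liver, 239 (62.2%, 57.3 to 66.9) were spliced in both muscle assemblies. The rest were spliced in a single muscle assembly and had no form in the other. None of the 384 could be retained in muscle by definition, so this share tells only where both muscle assemblies had a form.

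Shares of opposite forms lay close together in the 3 pairs, each taken over its own set of introns with a form in both assemblies. They were not close over introns with a form in all 3 assemblies, as given below. Among 1605 introns with a form in both muscle assemblies, 418 (26.0%, 24.0 to 28.2) had the spliced form alone in one and the retained form alone in the other. The same was found for 373 of 1346 introns (27.7%, 25.4 to 30.2) between liver and muscle assembly 2, and for 385 of 1341 (28.7%, 26.4 to 31.2) between liver and muscle assembly 3. Over all introns with a form in both assemblies of a pair, these opposite forms made up 0.374% between the muscle assemblies, 0.394% between liver and muscle assembly 2 and 0.408% between liver and muscle assembly 3. The opposite forms were also uneven within muscle, with 252 introns spliced in assembly 2 and retained in assembly 3 against 166 the reverse. Between liver and muscle assembly 2 there were 141 spliced in liver and 232 retained in liver, and between liver and muscle assembly 3 there were 159 and 226. Of the 418 opposite introns in muscle, 228 had no form in liver, so they met the rule only because the muscle assemblies differed. Between liver and muscle assembly 2, 54 retained in liver and 55 spliced in liver had no form in muscle assembly 3. Between liver and muscle assembly 3, 63 and 45 had none in muscle assembly 2. Over introns with a form in all 3 assemblies all of these drop out, and the muscle pair then had fewer opposite introns than either liver pair. The closeness thus holds only with each pair's own set, and no difference was tested. Each assembly takes part in 2 of these pairs, so the pairs are not independent.

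Retention shared by a pair also gave close shares where each pair was taken over its own set of introns. An intron with no form in liver met the rule only where the muscle assemblies differed or at least 1 had both forms. The same holds for the other pairs. Over introns with a form in all 3 assemblies, 455 were retained in all 3. Another 89 were retained in the muscle pair alone, 75 in liver and muscle assembly 2, and 88 in liver and muscle assembly 3. Liver alone retained 239, muscle assembly 2 alone 103 and muscle assembly 3 alone 126. Over that common set the share retained in both was thus highest for the muscle pair, and no difference was tested. Of 1366 introns retained in either muscle assembly and with a form in both, 666 (48.8%, 46.1 to 51.4) were retained in both, which is 0.596% of all introns with a form in both. For liver the shares were 46.6% (43.9 to 49.4; 569 of 1220) with muscle assembly 2 and 46.7% (43.9 to 49.5; 578 of 1238) with muscle assembly 3, or 0.600% and 0.612% of all introns with a form in both. The full state, counting both forms as a state of its own, was the same for 34.0% (31.7 to 36.3) of introns between the muscle assemblies. Between liver and the muscle assemblies it was the same for 26.0% (23.7 to 28.4) and 26.8% (24.5 to 29.2), intervals that do not overlap that of the muscle pair. An intron with the same single form in both of a pair met the rule only through the remaining assembly. These shares thus depend on that assembly too, each is taken over its own set, and no difference was tested. The share retained in both muscle assemblies was 31.3% (27.5 to 35.3) among introns spliced in 2 or more assemblies, 28.6% (24.4 to 33.3) where retention counted only beside splicing in the same assembly and 35.5% (31.6 to 39.6) with exact outer ends of the retaining exon. It lay between 48.3% and 49.5% with longer flanks, introns of 70 bases or more, retaining transcripts of 3 or more exons, or a shared intron.

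**Figure D2:**
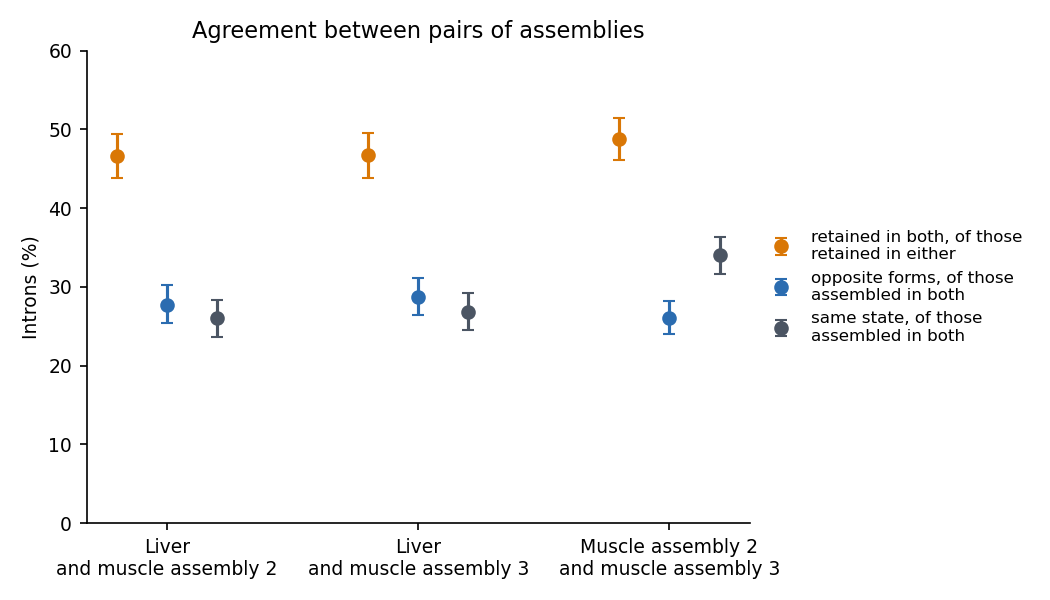
Percent of introns (vertical axis) for each pair of assemblies, with Wilson 95% intervals for counting error: retained in both of those retained in either, opposite forms, and same state. The share retained in both (46.6% to 48.8%) and the share with opposite forms (26.0% to 28.7%) lie close together in the 3 pairs, and the same state is most frequent between the muscle assemblies (34.0%). Each pair has its own set of introns, those with a form in both of its assemblies. An intron with the same single form in both met the rule only through the remaining assembly. Over introns with a form in all 3 assemblies (not drawn), the muscle pair had the fewest opposite forms and the highest share retained in both.

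Another comparison of each pair started from retention in the remaining assembly. It still depends on the pair, since an intron with only the retained form there met the rule only where the pair spliced it. The introns retained in all 3 assemblies also count as the same call for every pair. Of 857 introns retained in liver and with a form in both muscle assemblies, 455 were retained in both muscle assemblies and 239 in neither. The muscle assemblies thus gave the same call for 694 (81.0%, 78.2 to 83.5). Starting from retention in muscle assembly 2, liver and muscle assembly 3 gave the same call for 558 of 722 introns (77.3%, 74.1 to 80.2). Starting from muscle assembly 3, liver and muscle assembly 2 did so for 581 of 758 (76.6%, 73.5 to 79.5). The muscle pair had the highest share, and its interval overlaps those of both other pairs.

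Retained introns were short. Their median length was 150 bases (95% interval of the median 136 to 164), with quartiles at 87 and 541, against a median of 872 (865 to 878) and quartiles at 390 and 2101 for the other introns. Introns of 100 bases or fewer made up 754 of the 2131 (35.4%, 33.4 to 37.4), against 5.60% (5.48 to 5.71) of the others. The shortest had 48 bases and the longest 17825. Among introns spliced in 2 or more assemblies, 836 lay inside an exon, with a median of 100 bases (94 to 108). Introns over 1000 bases made up 14.5% (13.1 to 16.1), against 45.5% (45.2 to 45.7) of the others.

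The share of introns that lay inside an exon was lower in each longer length class. Of 641 introns of up to 70 bases, 133 (20.7%, 17.8 to 24.1) did. At 71 to 80 bases it was 9.61% (8.53 to 10.8), at 101 to 150 bases 4.24% (3.81 to 4.73) and at 301 to 500 bases 1.05% (0.917 to 1.21). Between 501 and 1000 bases (0.750%) and between 1001 and 2000 bases (0.731%) the shares did not differ beyond their intervals. Above 5000 bases, 13 of 17998 introns (0.0722%, 0.0422 to 0.124) lay inside an exon. An exon must be longer than the intron it holds, and the median exon had 129 bases in liver and 128 in each muscle assembly, so part of this order is set by the rule. No sequence was read, so the splice sites of the shortest introns were not checked.

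**Figure D3:**
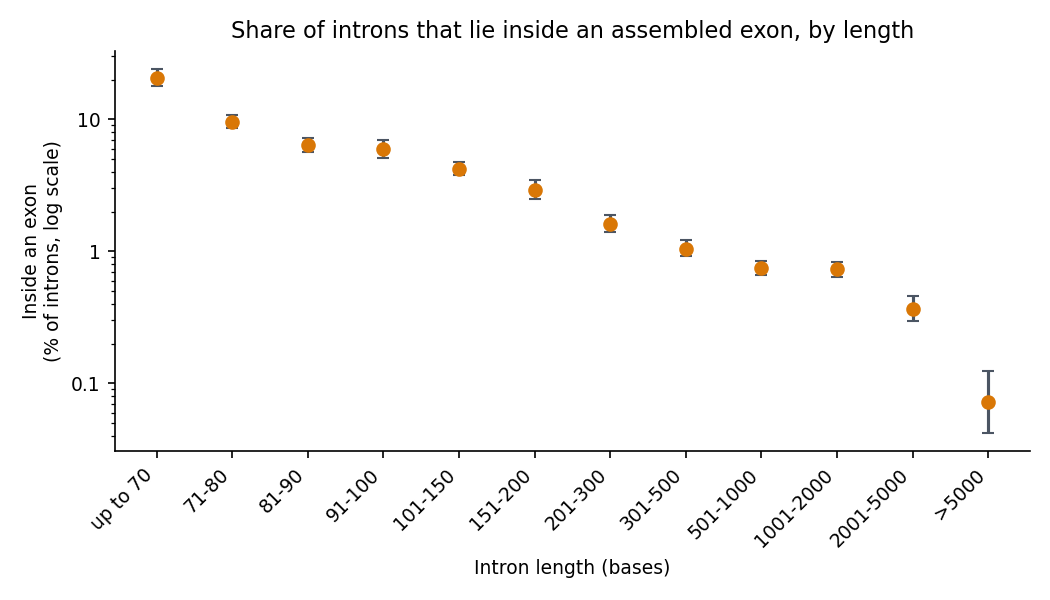
Percent of introns that lie inside an assembled exon (vertical axis, log scale) by intron length in bases (horizontal axis), with Wilson 95% intervals for counting error. The share goes from 20.7% of introns of up to 70 bases to 0.0722% of those above 5000 bases.

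Length also differed with how often an intron was spliced and retained. Retained introns spliced in all 3 assemblies had a median of 89 bases (86 to 93), and 59.3% (54.3 to 64.1) had 100 bases or fewer. Those spliced in 2 assemblies had a median of 119 (105 to 139), and those spliced in 1 had 201 (174 to 228). Other introns stayed between medians of 812 and 1081 in these classes, also shortest where spliced in all 3. Introns retained in all 3 assemblies were longer, with a median of 207 bases (166 to 283), than those retained in 1, with 123.5 (113 to 135). By tissue, the median was 182 (159 to 221) for introns retained in liver and muscle, 119.5 (108 to 151) for liver alone and 137 (126 to 157) for muscle alone; the last intervals overlap.

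Retained introns were gathered at the 3′ end of transcripts. In the splicing transcript with the most introns, 832 of the 2131 (39.0%, 37.0 to 41.1) were the last intron, against 10.04% (9.89 to 10.2) of the others. Among retained introns spliced in 2 or more assemblies, 28.8% (25.9 to 32.0) were the last intron. The share was 41.8% where retention counted only beside splicing in the same assembly, and 41.7% without muscle assembly 3. Internal introns made up 39.2% (37.1 to 41.3) against 74.3% (74.1 to 74.5), first introns 17.1% (15.6 to 18.8) against 13.3% (13.2 to 13.5), and introns of transcripts with a single intron 4.65% against 2.31%. Their splicing transcripts had a median of 8 introns, against 14 for other introns, so end positions were more frequent in them by number alone. Of introns in each place, 5.18% (4.85 to 5.54) of last, 1.77% (1.60 to 1.96) of first and 0.735% (0.687 to 0.787) of internal introns lay inside an exon.

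Among transcripts with 5 or more introns, ranked from the 5′ end and divided into 5 equal parts, 47.9% (45.4 to 50.4) of retained introns lay in the part nearest the 3′ end, against 19.8% (19.6 to 20.0) of the others. The part nearest the 5′ end held 19.3% (17.4 to 21.3) against 22.8% (22.6 to 23.1). The parts between held between 9.97% and 11.6% each, against 19.0% to 19.3% of other introns.

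Short and long retained introns lay in different places. Among those of 100 bases or fewer, 57.4% (53.9 to 60.9) were internal and 20.8% (18.1 to 23.9) were last introns. Among those over 100 bases, 29.2% (26.9 to 31.7) were internal and 49.0% (46.4 to 51.7) were last. Other introns showed no such shift, with 9.73% last among the short and 10.1% among the longer. The median retained intron had 381 bases (326 to 438) where it was the last, 130 (117 to 140) where it was the first and 97 (93 to 103) where it was internal. Other introns had medians of 888, 1550 and 818 in these places.

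The exon that held the intron was most often the last exon of its transcript. In liver 50.3% (47.5 to 53.2) of retained introns lay in last exons only, 29.9% (27.3 to 32.6) in internal and 17.3% (15.2 to 19.6) in first exons. Muscle assembly 2 gave 52.2% (49.4 to 55.1), 29.0% and 15.8%, and muscle assembly 3 gave 48.5% (45.7 to 51.4), 30.9% and 17.8%. The intervals of the 3 assemblies overlap for each place. Over all assemblies, 1476 introns (69.3%, 67.3 to 71.2) lay in a first or last exon of at least 1 retaining transcript, and 655 (30.7%, 28.8 to 32.7) in internal exons only.

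**Figure D4:**
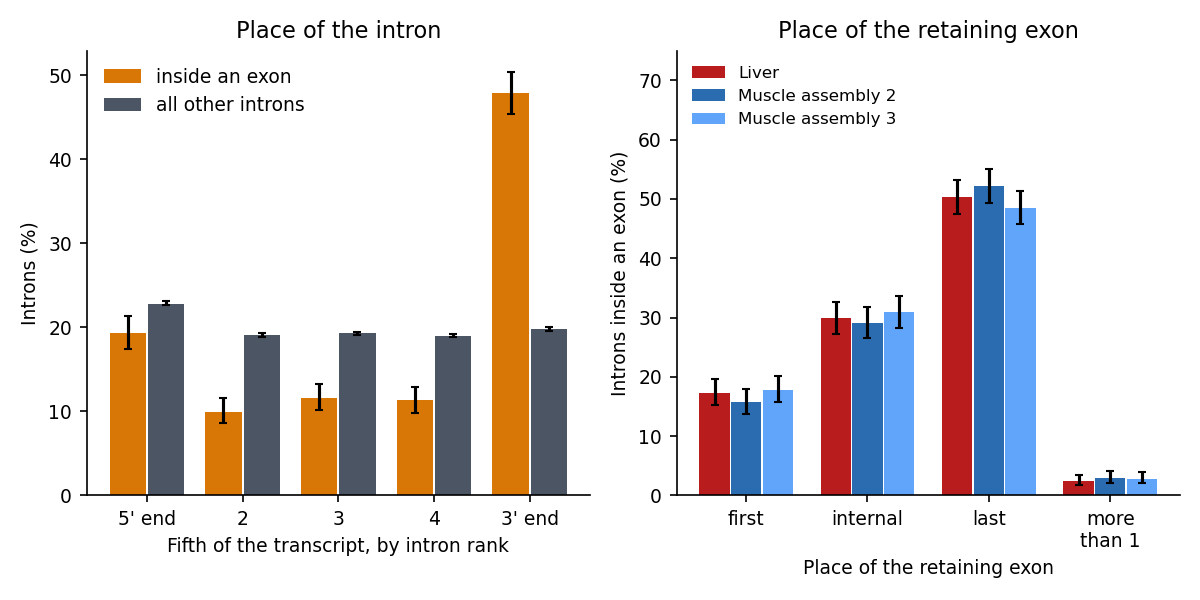
Left, percent of introns in 5 equal parts of the transcript, from the 5′ to the 3′ end, for introns inside an exon and all others; right, percent of retained introns by place of the retaining exon in each assembly; bars carry Wilson 95% intervals for counting error. The part at the 3′ end holds 47.9% of introns inside an exon and 19.8% of the others, and last exons hold 48.5% to 52.2% in each assembly.

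The length of exons moved with their place. The median last exon had 788 bases in liver, 694 in muscle assembly 2 and 728 in muscle assembly 3, while the median internal exon had 123 in each. Of all last exons, 3.85% (3.53 to 4.19) in liver, 3.40% (3.13 to 3.70) and 3.43% (3.15 to 3.74) in muscle held a spliced intron, against 0.361%, 0.294% and 0.333% of internal exons. Among exons of 1000 bases or more the order was turned. An exon that holds an intron includes its length, so this limit also selects such exons, and its part in the order was not tested. In liver 6.66% (6.04 to 7.33) of such last exons held one, against 10.4% (8.42 to 12.9) of internal and 11.1% (8.13 to 15.0) of first exons. Muscle assembly 2 gave 6.30% (5.74 to 6.91), 9.26% (7.76 to 11.0) and 10.4% (8.15 to 13.1), and muscle assembly 3 gave 5.98% (5.43 to 6.60), 11.1% (9.28 to 13.3) and 12.4% (9.61 to 16.0).

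Joint retention in the muscle assemblies differed with length and place. Of introns retained in either muscle assembly with a form in both, those of 100 bases or fewer were retained in both in 30.6% (26.7 to 34.9). For over 100 and up to 500 bases this was 58.1% (53.9 to 62.3), and for over 500 bases 59.2% (54.1 to 64.2). Last introns reached 62.8% (58.8 to 66.7), against 39.1% (35.1 to 43.4) for internal and 38.6% (32.2 to 45.3) for first introns. By retaining exon, the share was 58.9% (54.8 to 62.8) in last, 31.9% (27.6 to 36.5) in internal and 27.6% (22.0 to 33.9) in first exons. Among introns retained in liver, the share given the same call, retained or not, was also taken. By length it kept this order with overlapping intervals, and by place it did not keep it. It was 79.1% (74.1 to 83.3) for 100 bases or fewer, 81.7% (77.3 to 85.4) for the middle lengths and 82.5% (76.9 to 87.0) for over 500 bases. By place it was 85.8% (81.8 to 89.0) for internal, 80.3% (76.0 to 84.0) for last and 70.2% (60.8 to 78.1) for first introns, and 86.3% for internal against 79.4% (75.1 to 83.2) for last retaining exons.

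The same classes differed in how often all 3 assemblies retained the intron. They did so for 31.1% (28.1 to 34.4) of last, 17.2% (14.8 to 20.0) of internal and 12.1% (9.10 to 15.8) of first introns. Among internal introns the median length was 89 bases (86 to 91) where 1 assembly retained the intron and 148 (128 to 167) where all 3 did. Among last introns it was 362 (275 to 481) and 388 (317 to 468), intervals that overlap. Among first introns it was 138 (124 to 167) and 106 (94 to 127), also with overlapping intervals and the opposite order.

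Where both forms were assembled in the same file, the retaining transcript more often had the higher score. Cufflinks gives each transcript a score from 100 to 1000 that ranks transcripts within a locus by abundance, so it compares forms of the same gene only. In liver the retaining transcript scored higher for 317 of 542 introns (58.5%, 54.3 to 62.6), in muscle assembly 2 for 338 of 553 (61.1%, 57.0 to 65.1) and in muscle assembly 3 for 288 of 494 (58.3%, 53.9 to 62.6). The median best score was 1000 for the retaining form in each assembly, and 753, 754 and 748 for the splicing form. Of 113 introns with both forms in both muscle assemblies, the same form scored higher in 82 (72.6%, 63.7 to 79.9). Between liver and the muscle assemblies this was 70 of 88 (79.5%) and 74 of 94 (78.7%).

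Splice sites were compared with those of all introns. Neither splice site was shared with another intron for 76.6% (74.7 to 78.3) of retained introns and 75.5% (75.3 to 75.7) of the others. Both sites were shared for 1.13% (0.758 to 1.67) and 3.86% (3.76 to 3.95). An exon of a spliced transcript on the opposite strand overlapped 276 of the retained introns (13.0%, 11.6 to 14.4), against 2.47% (2.39 to 2.55) of the others. Whether the libraries kept the strand is not stated in the labels, and without it reads of the opposite gene can join an exon; its part in the retained forms was not tested. The 276 introns were retained in all 3 assemblies in 13.0% (9.57 to 17.5), against 22.6% (20.7 to 24.5) of the 1855 with no such exon. Of those retained in either muscle assembly with a form in both, 43.3% (35.7 to 51.3) and 49.4% (46.6 to 52.2) were retained in both.

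Intron lengths that are a multiple of 3 would keep the reading frame if the intron lay in coding sequence and held no stop codon. They made up 35.1% (33.1 to 37.2) of retained introns and 33.0% (32.7 to 33.2) of the others, intervals that meet at their edges. By retaining exon, the share over all lengths was 35.3% (31.7 to 39.0) in internal, 35.5% (32.5 to 38.7) in last and 33.3% (28.8 to 38.0) in first exons. Over 100 and up to 300 bases the share was 39.6% (35.8 to 43.5; 241 of 609) against 33.0% (32.4 to 33.6) for other introns of that length. Over 300 and up to 2000 bases the shares of retained and other introns lay within their intervals. The range of 100 to 300 bases was chosen after the values were seen.

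Some exons held several introns, each counted by its own start and end, so introns that overlap each other count separately. Most retaining exons held 1, and 147 of 1012 in liver (14.5%, 12.5 to 16.8), 148 of 1034 in muscle assembly 2 (14.3%, 12.3 to 16.6) and 146 of 1037 in muscle assembly 3 (14.1%, 12.1 to 16.3) held 2 or more. The highest number was 6 in each assembly. On scaffold 18915, plus strand, both muscle assemblies had a last exon from position 1404184, to 1406689 in assembly 2 and to 1406914 in assembly 3, each with 6 introns of 81 to 805 bases and each in a transcript of 15 exons. In assembly 2, 2 of the 6 were also spliced, and in assembly 3 it was 0 of the 6.

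On scaffold 5744, plus strand, both muscle assemblies had a first exon ending at position 841, from 37 in assembly 2 and from 33 in assembly 3, with 6 introns of 51 to 239 bases. Liver had 2 such exons with 6 introns. One was the last exon, from 1124855 to 1127935 on scaffold 2068, of a transcript of 23 exons, and the other ran from 177 to 1734 on scaffold 9738 in a transcript of 2 exons. In muscle assembly 3 an exon of 11400 bases on scaffold 22960, from 560411 to 571810, also held 6, of 456 to 964 bases. The highest number in a whole transcript was 6 too, and the muscle assembly 2 transcript on scaffold 20697 from 21196 to 28731 had its 6 in 4 different exons.

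Of the 455 introns retained in all 3 assemblies, the longest had 7686 bases and lay on scaffold 3737, plus strand, from 16863 to 24548. It was the last of 8 introns, and the longest exon that held it ran from 16726 to 27435. Each assembly had 1 transcript of each form. The retaining and splicing forms scored 587 and 1000 in liver, 1000 and 985 in muscle assembly 2, and 1000 and 661 in muscle assembly 3. The spliced form thus ranked higher in liver and the retained form in both muscle assemblies, with no replicate to test this.

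The next longest, of 5950 bases on scaffold 3945 from 268660 to 274609, plus strand, was also a last intron. It had both forms in liver, with scores of 883 retained and 1000 spliced, and only the retained form in both muscle assemblies. The shortest had 48 bases on scaffold 19184, minus strand, from 79275 to 79322, and lay in an internal exon of 205 bases that matched both outer ends. It was spliced in muscle assembly 3 only, where the retaining form scored 228 and the splicing form 738. The other short intron, of 50 bases, lay on scaffold 9738 from 532 to 581 in the exon of 6 introns described above, and was spliced in liver and muscle assembly 2.

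Gene levels could be set beside introns on scaffolds with a single listed gene, in RPKM (read counts divided by gene length and by the number of reads in the library). Where several introns of a class lay on such a scaffold, the longest was taken. The highest RPKM in the class retained in all 3 assemblies belonged to the gene on scaffold 194981, with 11.4 RPKM in liver and 39.5 in muscle. Its intron of 638 bases, from 1478 to 2115 on the plus strand, was the last of 2. Each assembly had 1 transcript of each form, with the retaining form at a score of 1000 and the splicing form at 513 in liver, 797 in muscle assembly 2 and 696 in muscle assembly 3. On scaffold 22846, with 18.9 RPKM in liver and 31.5 in muscle, an internal intron of 66 bases from 4591 to 4656, minus strand, was retained in every assembly. It was spliced in muscle assembly 3 alone, at a score of 170 against 1000.

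In the class retained in both muscle assemblies and, in liver, spliced without retention, with 89 introns and a median of 254 bases (119 to 511), the muscle assemblies could also splice the intron, and in 54 of the 89 neither did. The longest had 8621 bases. It lay on scaffold 17745, minus strand, from 697763 to 706383, as the last of 11 introns. Liver had 1 splicing transcript, and muscle assemblies 2 and 3 had 2 and 1 retaining transcripts with no splicing one. The next, of 4354 bases on scaffold 23042 from 1381290 to 1385643, plus strand, had 1 splicing transcript in liver and 1 and 2 retaining ones in muscle assemblies 2 and 3. In both, the 5′ outer end of the retaining exon matched and the 3′ end did not.

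The shortest of this class had 60 bases on scaffold 18673, plus strand, from 347 to 406. Both muscle assemblies also spliced it, at a score of 1000, and the retaining form scored 255 in assembly 2 and 655 in assembly 3. An intron of 64 bases on scaffold 19144, minus strand, from 34 to 97, was both the next shortest and the one with the highest RPKM, 6.51 in liver and 11.3 in muscle. Liver had 1 splicing transcript and each muscle assembly 1 retaining transcript, and neither outer end matched. The liver transcript shared no intron with the muscle transcripts, and the longest retaining exon ran from 2 to 161, at the edge of the scaffold. On scaffold 187752, with 3.20 RPKM in liver and 5.04 in muscle, an intron of 82 bases from 220 to 301, plus strand, lay in the first exon. Its retaining form scored 1000 against 916 in muscle assembly 2 and 235 against 1000 in muscle assembly 3.

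In the class retained in liver and spliced without retention in both muscle assemblies, the 239 introns had a median of 92 bases (86 to 104), and 56.5% (50.1 to 62.6) had 100 bases or fewer. Unlike the class before, it requires splicing in 2 assemblies and retention in 1, numbers with which length itself differed, so the lengths of these classes were not set against each other. The longest had 5243 bases on scaffold 21919, minus strand, from 2188483 to 2193725, and was the last of 20 introns, with 1 retaining transcript in liver, and 1 and 3 splicing ones in muscle assemblies 2 and 3. The next had 3108 bases on scaffold 21898, minus strand, from 6190837 to 6193944, the last of 8 introns. It lay in a liver exon of 10232 bases.

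The shortest of this class had 59 bases on scaffold 21838, plus strand, from 719669 to 719727, and was number 19 of 44 introns. Liver had 4 retaining transcripts with an exon of 122 bases that matched both outer ends, and muscle assemblies 2 and 3 had 3 and 2 splicing ones. An intron of 64 bases on scaffold 18864 from 490524 to 490587, plus strand, lay in a first exon, and liver had both forms, at 406 retained and 1000 spliced. The highest RPKM was that of the gene on scaffold 21010, with 69.6 in liver and 86.9 in muscle. Its intron of 81 bases, from 6947 to 7027 on the plus strand, was the last of 6, and liver had both forms, at 1000 retained and 652 spliced. On scaffold 20264, with 23.5 RPKM in liver and 4.49 in muscle, an intron of 151 bases from 4698 to 4848, minus strand, was number 5 of 12. Liver had 2 retaining transcripts and each muscle assembly 2 splicing ones, and both outer ends matched.

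**Figure D5:**
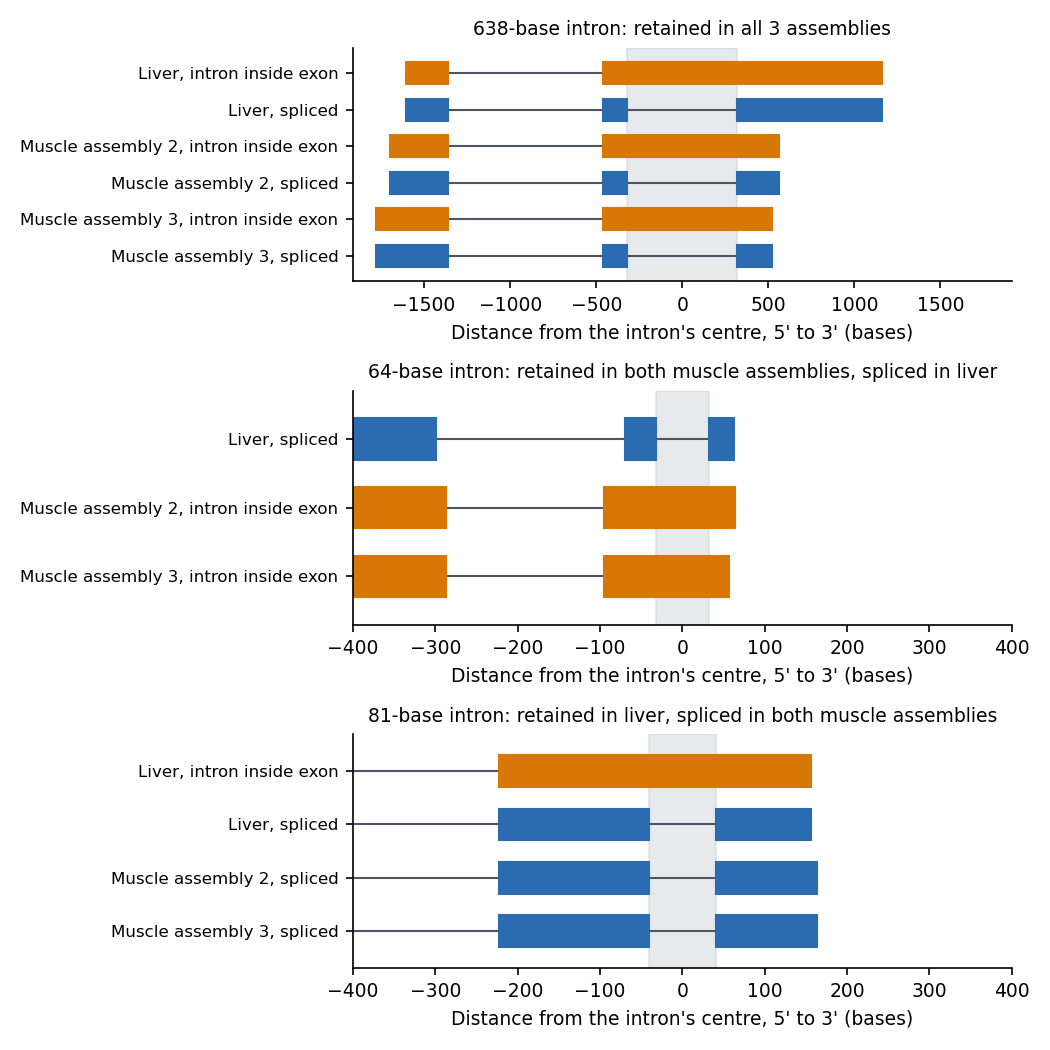
Assembled transcripts over 3 introns, drawn by distance from the centre of the intron in bases, 5′ to 3′; boxes are exons (orange where the exon holds the intron, blue where it is spliced out), lines are introns, the grey band is the intron, and transcripts that reach farther are cropped. The 638-base intron has both forms in every assembly, the 64-base intron is spliced in liver and inside an exon in both muscle assemblies, and the 81-base intron has both forms in liver and the spliced form in muscle. At the 64-base intron the liver transcript shares no intron with the muscle transcripts.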

How the data were processed

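Transcripts were assembled by the authors with Cufflinks, per the deposited files, and TopHat is named in the submitters' processing notes. Versions, settings, genome build and depth were not given in the sources used here. Per the deposited files, a score from Cufflinks ranks transcripts within a locus. The authors deposited RPKM per gene for both tissues, per the file headers; its rows that name no gene were not used. Positions are 1-based on the submitters' scaffolds, and no sequence was read.

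An intron was identified by its scaffold, start, end and strand. Transcripts of 1 exon have no strand and were not used as retaining transcripts. Place was taken from the splicing transcript with the most introns. Shares have Wilson 95% intervals, and medians have binomial intervals of their order statistics; introns of the same gene are not independent, so these are too narrow. No p-value was computed. The script was tested on simulated transcripts.

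Regions were named by a fixed rule: in 3 classes the 2 longest, the 2 shortest and the 2 with the highest RPKM on scaffolds with 1 gene, and the exons and transcripts with the most introns. The set of introns, classes and rule were chosen with earlier results of these data known. Calculations used Python 3.11.15, numpy 2.4.6 and scipy 1.17.1, and figures matplotlib 3.10.9.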

Additional observations from a re-analysis of the deposited data

Results flagged for a closer look

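Transcripts of 1 exon carry no strand and entered none of the comparisons. They also held introns: 2037 introns lay wholly inside such a transcript, a signal in data that no comparison used. Of these, 357 were among the 2131 retained introns (16.8%, 15.2 to 18.4) and 1680 among the other introns (1.11%, 1.06 to 1.16). By assembly, 617 lay inside a liver transcript of 1 exon, 1275 inside one of muscle assembly 2 and 840 inside one of muscle assembly 3. Since these transcripts have no strand, they cannot be assigned to the gene of the intron.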

How the results depend on the processing

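A flank of 10 bases, and transcripts of 1 exon where stranded (there were none), left all main values within their intervals or within 1.5 times the count. Against 2131 introns, 1.39% of all introns, a median of 150 bases, 69.3% in a terminal exon, 48.8% agreement of the muscle assemblies, and 436 introns spliced in liver and retained in muscle alone, and 384 the reverse, these values moved. A flank of 50 bases gave 1.23% and 167 bases, and introns of 70 bases or more gave 1.31% and 167 bases. Retaining transcripts of 3 or more exons gave 1.23% and 64.6%. Exact outer ends gave 1212 introns, 0.788%, 129 bases, 48.9%, an agreement of 35.5%, and 237 and 209. Introns spliced in 2 or more assemblies gave 836, 0.698%, 100 bases, 53.7%, 31.3% and 282. Retention counted only beside splicing in the same assembly gave 1341, 0.872%, 65.5%, 28.6%, 201 and 166. Without muscle assembly 2 there were 1327 introns, 0.968%, 66.8% and 269, and without muscle assembly 3 there were 1380, 0.948% and 256. A shared intron between retaining and splicing transcript, chosen after the data were seen, gave 1.27% and 66.7%. The fall in counts follows from fewer introns or exons admitted. Where retention counted only beside splicing, both forms in one muscle assembly and the retained form alone in the other no longer counted as shared. Among introns with the retained form alone in liver, 104 and 98 were of this kind. Part of the fall to 28.6% is thus set by that rule, and why agreement fell under the other settings was not tested. No paired analysis was possible because each tissue has 1 sample.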

Other observations

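Retained introns were spread over 631 of the 2529 scaffolds with an intron, and the most on any scaffold was 29. Of the 2131 introns, 435 (20.4%) overlapped another retained intron on the same strand, so they share sequence. This share was not compared with that of the other introns.

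On 801 scaffolds with 1 listed gene and at least 1 intron, 55 (6.87%) held a retained intron, 76 introns in all. The genes on those 55 scaffolds stood at a median of 0.717 RPKM in liver and at 2.19 in muscle, and the genes on the other scaffolds had 0.510 and 1.63. The 15 genes with introns retained in liver alone had medians of 0.788 RPKM in liver and 2.19 in muscle, with muscle above liver in 13 of 15. Among the 29 genes with introns retained in muscle alone, muscle was above liver in 27, and over all 801 genes in 693 (86.5%).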
